A study of Mus musculus with 150 samples.

Results

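Single mouse lung cells were separated by whether they held transcript of Pcna, the gene for the sliding clamp of DNA replication. Of 127 cells kept from 2 Fluidigm C1 chips, which hold one captured cell per microfluidic well, 57 had Pcna at a TPM (transcript abundance scaled to a fixed total per cell) of at least 1 and 70 were below 1. The Pcna cells were 35 of 61 cells labelled knockout and 22 of 66 wild-type cells. Cells were kept when no remark on debris or a valve was attached to the well and at least 1000 genes other than spike-ins reached 1 TPM. The groups were chosen by the Pcna TPM itself, so its levels are given as a description.

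The series of 150 samples addressed how airway progenitor cells behave with and without p53, the tumour suppressor encoded by Trp53. The first chip held lung cells with the genotype label p53-/-, and the second chip held lung cells labelled wild type; the labels of both give tamoxifen at 250 mg/kg, the drug that switches on CreERTM. The protocols name Scgb1a1-CreERTM; Rosa26-mT/mG or Confetti mice, crossed to p53flox, p53-/- or Super p53 mice, and do not say which cross or which culture step gave the captured cells. The Scgb1a1 promoter, which drives that Cre, belongs to the main secreted protein of airway club cells. A separate bulk set held GFP+ EpCAM+ CD31/34/45- cells of p53flox/flox mice (3 libraries) and of p53+/+ mice (3 libraries), all carrying Scgb1a1-CreERTM and Rosa26-mT/mG. These mice were 8 to 12 weeks old; the protocol gives 70 days after tamoxifen and the sample titles give day 30.

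PCNA is a ring of 3 identical subunits that a clamp loader places around DNA, where it holds DNA polymerases and recruits ligase, nuclease, chromatin assembly and mismatch repair proteins. Its transcript is highest when cells enter and pass through S phase, and PCNA protein is widely used to stain proliferating cells. PCNA also acts in DNA repair, and its gene is a known p53 target, so the transcript is not restricted to cycling cells. In the resting adult lung, club cells of the airways and type 2 cells of the alveoli divide rarely and serve as progenitors.

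Pcna (ENSMUSG00000027342.14) lies on the minus strand of chromosome 2, at chr2:132249162-132253314 in GRCm38. Of the cell cycle, replication and repair lists, the gene whose detection was raised most in Pcna cells on both chips (by the smaller of its gains) was Mcm5 (ENSMUSG00000005410.6, plus strand, chr8:75109569-75128439), a subunit of the helicase that unwinds origins; it was singled out after its values were seen. The promoter sequences of these 2 genes are shown because both are classic genes of the G1/S programme. They run from 250 bases before to 50 bases after the RefSeq start on GRCm38.p6, at chr2:132253131-132253430 (minus strand) and chr8:75109259-75109558 (plus strand). Capitals mark matches on either strand to the letters TTTGGCGC, TTTCCCGC, TTTGCCGC or TTTCGCGC, forms of the E2F site, or to CCAAT, the site of NF-Y; overlapping matches run together.
Pcna promoter: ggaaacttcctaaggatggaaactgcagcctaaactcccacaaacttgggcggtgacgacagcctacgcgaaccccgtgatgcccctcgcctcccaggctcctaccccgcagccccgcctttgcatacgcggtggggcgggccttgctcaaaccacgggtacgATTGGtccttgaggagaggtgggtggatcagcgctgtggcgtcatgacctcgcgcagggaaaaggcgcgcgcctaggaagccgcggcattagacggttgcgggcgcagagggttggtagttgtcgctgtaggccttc
Mcm5 promoter: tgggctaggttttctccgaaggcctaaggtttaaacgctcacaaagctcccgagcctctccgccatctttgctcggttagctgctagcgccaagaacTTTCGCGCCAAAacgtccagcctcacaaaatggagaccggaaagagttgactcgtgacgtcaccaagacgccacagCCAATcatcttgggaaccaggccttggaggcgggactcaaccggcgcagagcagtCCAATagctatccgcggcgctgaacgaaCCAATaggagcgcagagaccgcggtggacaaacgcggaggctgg
The Mcm5 window held 2 overlapping matches, TTTCGCGC on the gene's strand and TTTGGCGC on the other strand, and the Pcna window held none of these letters. Such a match was present in 744 of 32851 mouse promoters of this length (2.26%) and in 8 of 21 promoter entries of the origin licensing genes. CCAAT occurred on either strand once in the Pcna window and 3 times in the Mcm5 window, and in 37.4% of all these promoters. A match is a description of letters, not evidence of binding.

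Pcna transcript was found in a larger share of the cells labelled knockout, and at higher levels, than in wild-type cells. It reached 1 TPM in 57.4% of the cells labelled knockout (exact 95% interval 44.1% to 70.0%), against 33.3% of wild-type cells (22.2% to 46.01%). The shares differed by 24.0 percentage points (Newcombe interval 6.72 to 39.5), which covers counting error only. Each genotype is 1 chip, so no test of genotype was possible, and genotype and chip cannot be told apart. Cells with 1000 to 2000 detected genes were almost all wild type, and none held Pcna (0 of 1 cell labelled knockout and 0 of 13 wild-type cells). Among cells with at least 2000 detected genes the shares were 58.3% of 60 cells labelled knockout and 41.5% of 53 wild-type cells. That difference was 16.8 points with an interval from -1.57 to 33.7, which includes 0.

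Within Pcna cells the transcript spanned a wide range. In Pcna cells labelled knockout the transcript had a lowest value of 1.07, a median of 67.3 and a highest value of 865 TPM. In wild-type Pcna cells the lowest value was 2.41, the median 18.2 and the highest 267 TPM. At least 100 TPM was reached by 12 of the 35 Pcna cells labelled knockout and by 3 of the 22 wild-type Pcna cells. The ranges overlapped, and the tables were normalized separately. Near the threshold, Pcna was at 1 to 10 TPM in 7 of the 35 Pcna cells labelled knockout and in 9 of the 22 wild-type Pcna cells. Just inside it were 1.07 and 1.45 TPM among cells labelled knockout and 2.41 and 2.84 TPM among wild-type cells. Just outside it, 4 cells labelled knockout (highest 0.73 TPM) and 5 wild-type cells (highest 0.86 TPM) had a value above 0, while 22 cells labelled knockout and 39 wild-type cells were at 0.

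**Figure D1:**
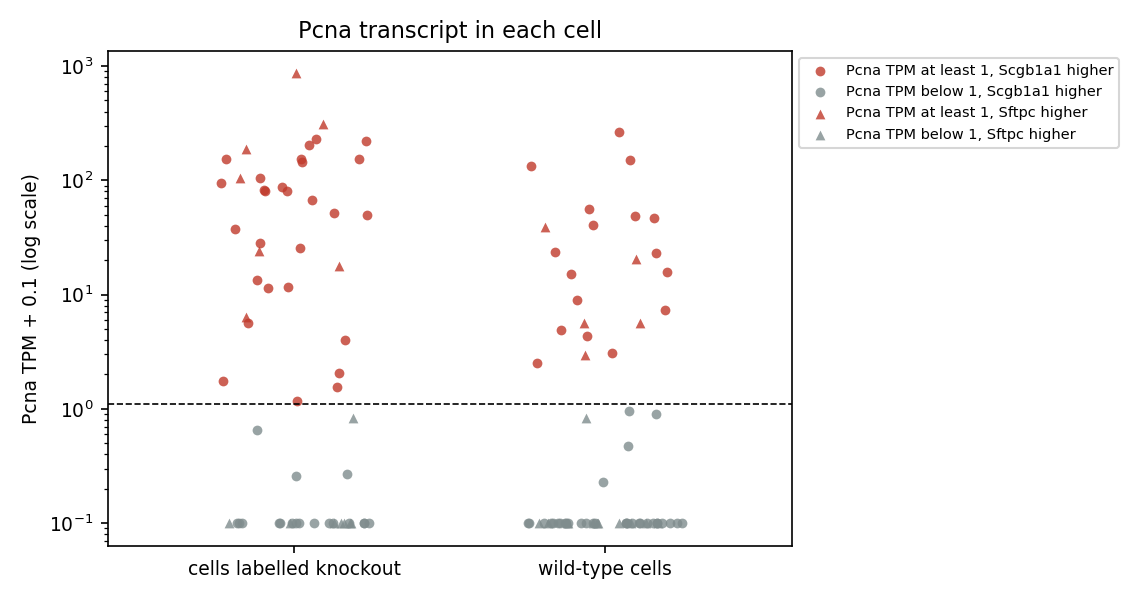
Pcna TPM plus 0.1 on a log scale for each of the 61 cells labelled knockout and 66 wild-type cells; circles are cells with more Scgb1a1 than Sftpc, triangles the others, and the dashed line marks 1 TPM. The highest cell, labelled knockout, stands at 865 TPM, and 12 cells labelled knockout and 3 wild-type cells reach at least 100 TPM.

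Pcna cells were found among both epithelial kinds. Cells were split by whether Scgb1a1 or Sftpc, the surfactant protein gene of alveolar type 2 cells, had the higher TPM. Among cells labelled knockout, Pcna reached 1 TPM in 28 of 46 cells with Scgb1a1 higher (60.9%) and in 7 of 15 with Sftpc higher (46.7%). Among wild-type cells it did so in 17 of 49 (34.7%) and 5 of 17 (29.4%). The exact intervals of the kinds overlapped on each chip. Scgb1a1 was detected in all 127 cells.

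Little transcript was assigned to the gene's near-copy. Pcna-ps2, a processed pseudogene at chr19:9283380-9284160, is 99.2% identical to the Pcna transcript over its 781 bases, so reads can be split between them. It reached 1 TPM in 3 of 35 Pcna cells and 0 of 26 cells without Pcna labelled knockout, and in 1 of 22 Pcna cells and 2 of 44 cells without Pcna of wild type. Its highest value was 6.64 TPM, in a wild-type cell with Pcna at 0, and another wild-type cell had 2.95 TPM of it with Pcna at 0.74 TPM. Whether these reads came from Pcna was not tested, so the group of these cells is less certain.

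Depth moved with the groups. Pcna cells labelled knockout had a median of 3751 detected genes, against 3422.5 in the cells without Pcna from that chip. Wild-type Pcna cells had 3189.5, against 2916.5 in wild-type cells without Pcna. Spike-in RNAs took medians of 6.10% and 7.56% of TPM in the cells labelled knockout with and without Pcna, and 11.9% and 14.2% in the wild-type cells with and without it. Every other gene was therefore compared by a linear fit of log2(TPM + 1) on the Pcna group with the log2 number of detected genes as covariate, within each chip, and all differences below are such adjusted log2 differences. Trp53 reached 1 TPM in 10 of 35 and 6 of 26 cells labelled knockout with and without Pcna, and in 2 of 22 and 2 of 44 wild-type cells with and without it. Trp53 was thus not less often detected on the knockout chip, whose cells also had more detected genes. TPM per gene does not show whether the transcript was intact, and whether the labels hold was not tested. The cells are called by label throughout.

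Of the 127 cells, 4 stood apart by markers of another cell type, with at least 10 genes of the list in question. A Pcna cell labelled knockout, the one with the highest Pcna (865 TPM), had 15 of 22 ciliated cell genes although Sftpc exceeded Scgb1a1 in it. A wild-type Pcna cell, the one with 2.41 TPM of Pcna, had 12 of these genes, and a cell without Pcna labelled knockout had 19. A second cell without Pcna labelled knockout had 10 of 17 immune cell genes, and the highest Top2a among cells without Pcna (23.8 TPM). No other cell had more than 4 of the ciliated or 7 of the immune genes. Without these cells the Pcna shares were 58.6% of 58 cells labelled knockout and 32.3% of 65 wild-type cells, with median Pcna in Pcna cells of 59.4 and 20.5 TPM. The cells were singled out after their values were seen, and results that move without them are given beside the values.

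Few genes differed by a large amount between cells with and without Pcna, and over all cells kept no gene did so on both chips. A gene was counted when its adjusted difference was at least 2 or at most -2 and it was detected in at least 30% of the higher group. Among cells labelled knockout, 10 of 8901 genes were higher in Pcna cells (0.112%) and 6 were lower (0.0674%). Among wild-type cells, 11 of 8009 genes were higher (0.137%) and 8 were lower (0.0999%). Of 7425 genes measured on both chips, 0 were higher on both (0%) and 0 were lower on both (0%). Without the 4 cells with many ciliated or immune genes, Reg3g was lower on both chips, at -2.55 among cells labelled knockout and -2.19 in wild type, and no other gene was past the size on both. Over all of these genes the sign matched between chips for 50.5%. Of the genes past this size among cells labelled knockout, 7 of 10 higher and 4 of 6 lower had the same sign in wild type; of those from wild type, 6 of 11 and 4 of 8 had the same sign among cells labelled knockout.

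**Figure D2:**
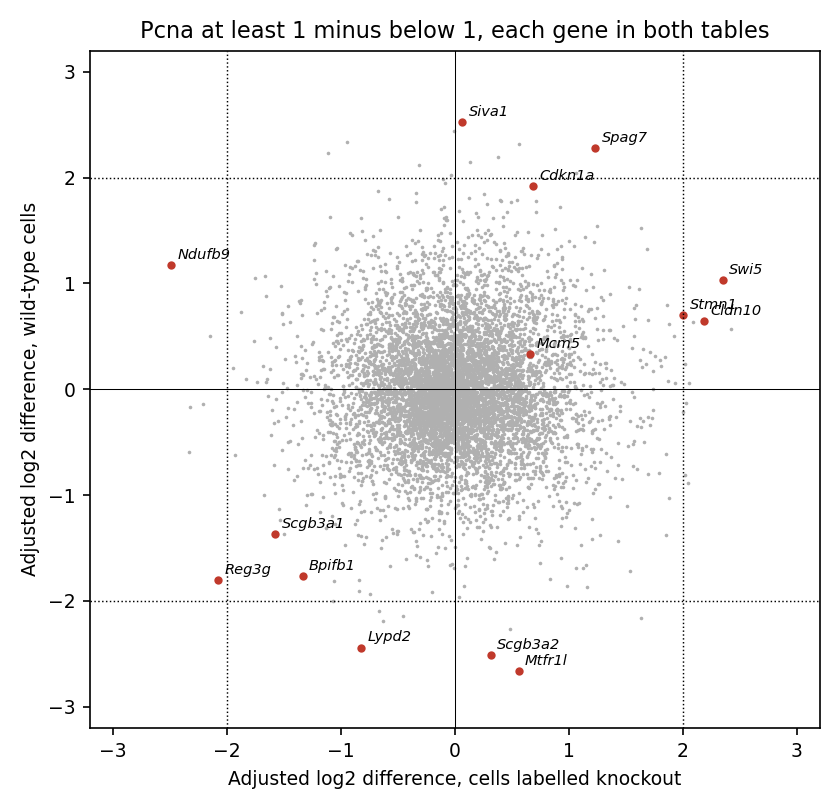
Adjusted log2 difference, Pcna cells minus cells without Pcna, of each of 7425 genes among cells labelled knockout (x) and wild-type cells (y); dotted lines mark 2 and -2, and red points are genes named in the text. No gene lies beyond the dotted lines in the same direction on both axes, and Reg3g comes closest at -2.08 and -1.81.

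Among cells labelled knockout, the genes higher in Pcna cells included a cytoskeletal gene of dividing cells and several housekeeping genes. Stmn1, which encodes the microtubule-destabilizing protein stathmin and is abundant in proliferating cells, was detected in 24 of 35 Pcna cells (lowest 0, median 74.1, highest 2623 TPM) and in 13 of 26 cells without Pcna (lowest 0, median 1.04, highest 876 TPM). Its adjusted difference was 2.00 among cells labelled knockout and 0.70 in wild type. Swi5, a partner in homologous recombination, was detected in 20 of 35 Pcna cells and 6 of 26 cells without Pcna (difference 2.35); in wild type it was found in 11 of 22 and 14 of 44 (1.03). Cldn10, a claudin of club cell junctions, was detected in 30 of 35 Pcna cells and 16 of 26 cells without Pcna (2.19, and 0.65 in wild type). Gpi1, the glycolytic glucose-6-phosphate isomerase, differed most (2.42), followed by Swi5 and Cldn10. The other higher genes were Sarnp, Uba2, Immp1l, Mien1, Tspan1 and Ppdpf, at 2.02 to 2.09.

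The genes lower in Pcna cells labelled knockout had varied roles. Ndufb9, a subunit of respiratory complex I, was detected in 22 of 35 Pcna cells and 22 of 26 cells without Pcna, with medians of 49.5 and 206 TPM and a difference of -2.49. In wild type its difference had the opposite sign, 1.17. Psme2, a subunit of the interferon-inducible proteasome activator, differed by -2.33, and S100a6, a calcium-binding protein, by -2.21; in wild type they were at -0.17 and -0.14. Cdc123 (-2.34), an assembly factor for translation initiation factor eIF2, Gm16136 (-2.15) and Reg3g (-2.08) completed the list. Among cells of that chip with Scgb1a1 above Sftpc, Cdc123 (-1.64) and Psme2 (-1.83) fell short of -2. Ndufb9 (-3.79), S100a6 (-2.27) and Reg3g (-2.99) did not. The ranges of Ndufb9 in cells with and without Pcna overlapped.

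In wild type the higher genes were mostly of general cell function. Siva1, a pro-apoptotic gene, was detected in 14 of 22 Pcna cells and 13 of 44 cells without Pcna (2.52), and its difference among cells labelled knockout was 0.06. Spag7 was detected in 15 of 22 Pcna cells (median 69.9 TPM) and 13 of 44 cells without Pcna (median 0), a difference of 2.28, against 1.23 among cells labelled knockout. Prdx5, a peroxidase that removes hydrogen peroxide, was detected in 18 of 22 Pcna cells (median 111 TPM) and 19 of 44 cells without Pcna (median 0), a difference of 2.04, against 1.07 among cells labelled knockout. Cdc42, a small GTPase of cell polarity, was detected in all 22 Pcna cells and in 31 of 44 cells without Pcna (2.15, and 0.13 among cells labelled knockout). The other 7 were Drg1, Asah1, Tax1bp3, Pdha1, Pqbp1, Rheb and Mtfr1, at 2.02 to 2.44.

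The lower genes in wild type included a secreted product of club cells. Scgb3a2, a secretoglobin of club cells, had a lowest value of 0, a median of 1784 and a highest of 28675 TPM in Pcna cells, against 0, 6116 and 35088 TPM in cells without Pcna. Its difference was -2.51 in wild type and 0.31 among cells labelled knockout. Lypd2 was detected in 8 of 22 Pcna cells and 24 of 44 cells without Pcna (-2.44), and differed by -0.82 among cells labelled knockout. The glycolytic enzyme gene Tpi1 was at -2.10 in wild type and -0.67 among cells labelled knockout. Mtfr1l (-2.66), Prelid1, Spcs1, Prr13 and Yipf5 were the others. Among cells with Scgb1a1 above Sftpc, a choice made after the values were seen, Scgb3a2 was lower on both chips. It was at -3.05 in wild type and -0.75 among cells labelled knockout. In these wild-type cells Tpi1 (-1.99) fell just short of -2. Lypd2 (-2.70), Mtfr1l (-2.76), Prr13 (-2.45) and Yipf5 (-2.13) did not.

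Genes that work with PCNA at the replication fork were mostly more often detected in Pcna cells labelled knockout. In wild type their median adjusted difference was near that of all genes. The difference between chips was not tested. Of 41 such genes (clamp loader, polymerases, ligase, nuclease, chromatin assembly and maintenance methylation), 31 were detected in a larger share of Pcna cells labelled knockout and 7 in a smaller share. In wild type the counts were 21 and 10. Of all genes detected in at least 10% of cells, 55.2% among cells labelled knockout and 62.97% in wild type were detected in a larger share of Pcna cells. The list counts also take in rarer members, so these percentages are not a like-for-like background for them. The median adjusted difference of the members detected in at least 10% of cells was 0.32 among cells labelled knockout (15 of 19 above 0) and -0.09 in wild type (7 of 17 above 0), against medians of -0.02 and -0.03 over all genes. No member reached a difference of 2 on either chip. The share of 10% was taken over both groups together, for these members as for all genes. A sparse member could therefore enter through Pcna cells alone, as Dnmt1 did among cells labelled knockout, which favours a value above 0.

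Single members showed how sparse these transcripts were. Dnmt1, the maintenance DNA methyltransferase that PCNA brings to the fork, was detected in 9 of 35 Pcna cells and 0 of 26 cells without Pcna labelled knockout, and in 4 of 22 and 4 of 44 wild-type cells. Pole4, a small subunit of polymerase epsilon, was detected in 17 of 35 and 3 of 26 cells labelled knockout, and in 7 of 22 and 13 of 44 wild-type cells. Tipin, of the fork protection complex, was detected in 14 of 35 and 3 of 26 cells labelled knockout, and in 0 of 22 and 4 of 44 wild-type cells, each time with the Pcna cells first. Lig1, the ligase that joins Okazaki fragments, was found in 9 of 35 and 3 of 26 cells labelled knockout, and in 2 of 22 and 6 of 44 wild-type cells. Fen1, the nuclease that trims those fragments, was found in 3 of 35 and 0 of 26 cells labelled knockout and in 1 of 22 and 0 of 44 wild-type cells. With 3 cells taken as the limit that a count of 0 allows, the share could be up to 11.5% of 26 cells, 13.6% of 22 cells and 6.82% of 44 cells.

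Origin licensing genes load the helicase before S phase. Of 18 members, 13 were detected in a larger share of Pcna cells labelled knockout and 4 in a smaller share, against 4 and 8 in wild type. The median adjusted difference was 0.53 among cells labelled knockout (11 of 12 above 0) and -0.24 in wild type (2 of 9 above 0). Mcm6 was detected in 9 of 35 Pcna cells and 3 of 26 cells without Pcna labelled knockout (0.94), and in 3 of 22 and 7 of 44 in wild type (-0.02). Mcm3 was detected in 5 of 35 and 0 of 26 cells labelled knockout, and in 1 of 22 and 2 of 44 wild-type cells. Mcm4 and Mcm7 had differences of 0.57 and 0.49 among cells labelled knockout, and Mcm2 of 0.14; wild-type Mcm4 was at -0.24.

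Mcm5 was more often detected in Pcna cells on both chips. On the knockout chip it reached 1 TPM in 18 of 35 Pcna cells (lowest 0, median 1.04, highest 102 TPM) and in 5 of 26 cells without Pcna (lowest 0, median 0.10, highest 5.33 TPM). In wild type it did so in 11 of 22 Pcna cells (lowest 0, median 0.63, highest 25.8 TPM) and in 9 of 44 cells without Pcna (lowest 0, median 0.10, highest 34.4 TPM). The ranges overlapped on both chips, and the adjusted differences were small, 0.66 among cells labelled knockout and 0.33 in wild type. The gap lay in the cells with more detected genes than the median of their chip: 16 of 19 Pcna cells and 3 of 11 cells without Pcna labelled knockout, and 9 of 13 and 3 of 20 in wild type. In the cells at or below the median it was 2 of 16 and 2 of 15 labelled knockout, and 2 of 9 and 6 of 24 in wild type.

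Many Mcm5 values lay close to the threshold, and the wild-type gap depended on it. At 3 TPM, Mcm5 was present in 10 of 35 Pcna cells and 2 of 26 cells without Pcna labelled knockout, and in 4 of 22 and 6 of 44 in wild type. At any value above 0 it was present in 27 of 35 and 18 of 26 cells labelled knockout, and in 16 of 22 and 36 of 44 in wild type. Among cells labelled knockout, Mcm5 was found in 1 of 7 cells with Pcna of 1 to 10 TPM, in 9 of 16 with 10 to 100 TPM and in 8 of 12 with at least 100 TPM. In wild type the order was the other way: 6 of 9, 5 of 10 and 0 of 3.

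**Figure D3:**
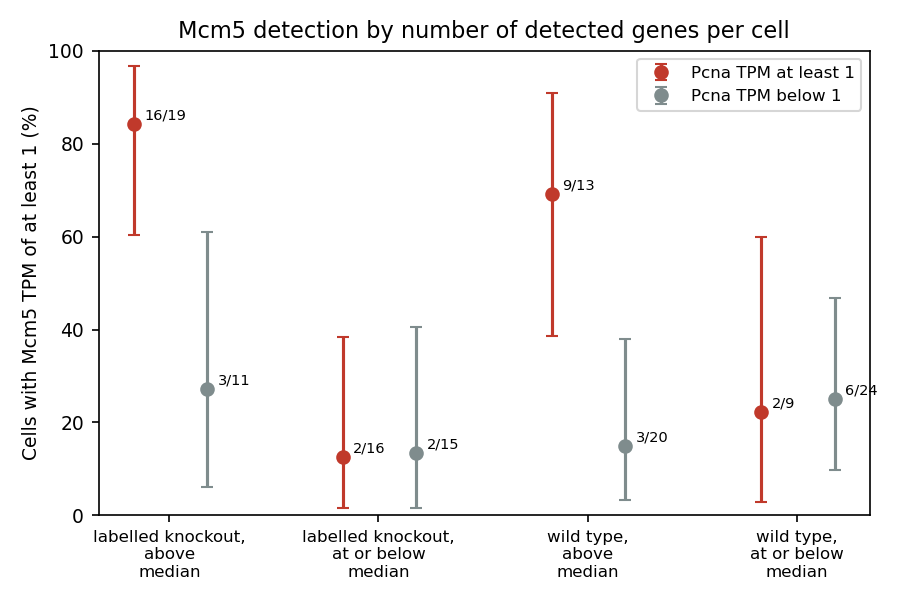
Share of cells with Mcm5 at 1 TPM or more, for cells above and at or below the median number of detected genes of their chip, Pcna cells in red and cells without Pcna in grey; bars are exact 95% intervals, counting error only. Above the median the shares are 16 of 19 against 3 of 11 among cells labelled knockout and 9 of 13 against 3 of 20 in wild type.

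Mitotic transcripts marked 2 cells labelled knockout, both with Pcna. Of 42 genes of G2 and mitosis, 40 were detected in one of them and 32 in the other. The first had 220 TPM of Pcna, 150 TPM of Mki67 (the Ki-67 proliferation antigen) and 384 TPM of Top2a (topoisomerase II alpha), with Scgb1a1 far above Sftpc. The second had 190 TPM of Pcna, 78.7 TPM of Mki67 and 102 TPM of Top2a, with Sftpc far above Scgb1a1. Another Pcna cell labelled knockout had 231 TPM of Pcna with 13 of 18 licensing genes and 11 G2/M genes, while Mki67 and Top2a were at 0.05 TPM each. No cell without Pcna had more than 9 of the 42 genes, and no wild-type cell more than 8. These cells were picked out after their values were seen.

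Proliferation markers were rare among Pcna cells, those 2 included. Mki67 reached 1 TPM in 5 of 35 Pcna cells and 1 of 26 cells without Pcna labelled knockout, and in 0 of 22 and 5 of 44 in wild type, where the highest value was 3.95 TPM. Top2a reached it in 5 of 35 and 1 of 26 cells labelled knockout and in 0 of 22 and 0 of 44 wild-type cells. The G2/M list had 35 of 42 genes detected in a larger share of Pcna cells labelled knockout and 5 in a smaller share, against 16 and 10 in wild type. Of all genes detected in at least 10% of cells, 55.2% labelled knockout and 62.97% in wild type were detected in a larger share. Those percentages leave out rarer genes, which the list counts include. Without the 2 cells (33 Pcna cells left), the counts were 23 and 8 for G2/M genes, 26 and 12 for fork partners and 12 and 5 for licensing genes. The median difference of the G2/M list was 0.30 with the 2 cells and 0.05 without them; for licensing genes it was 0.53 and 0.45.

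**Figure D4:**
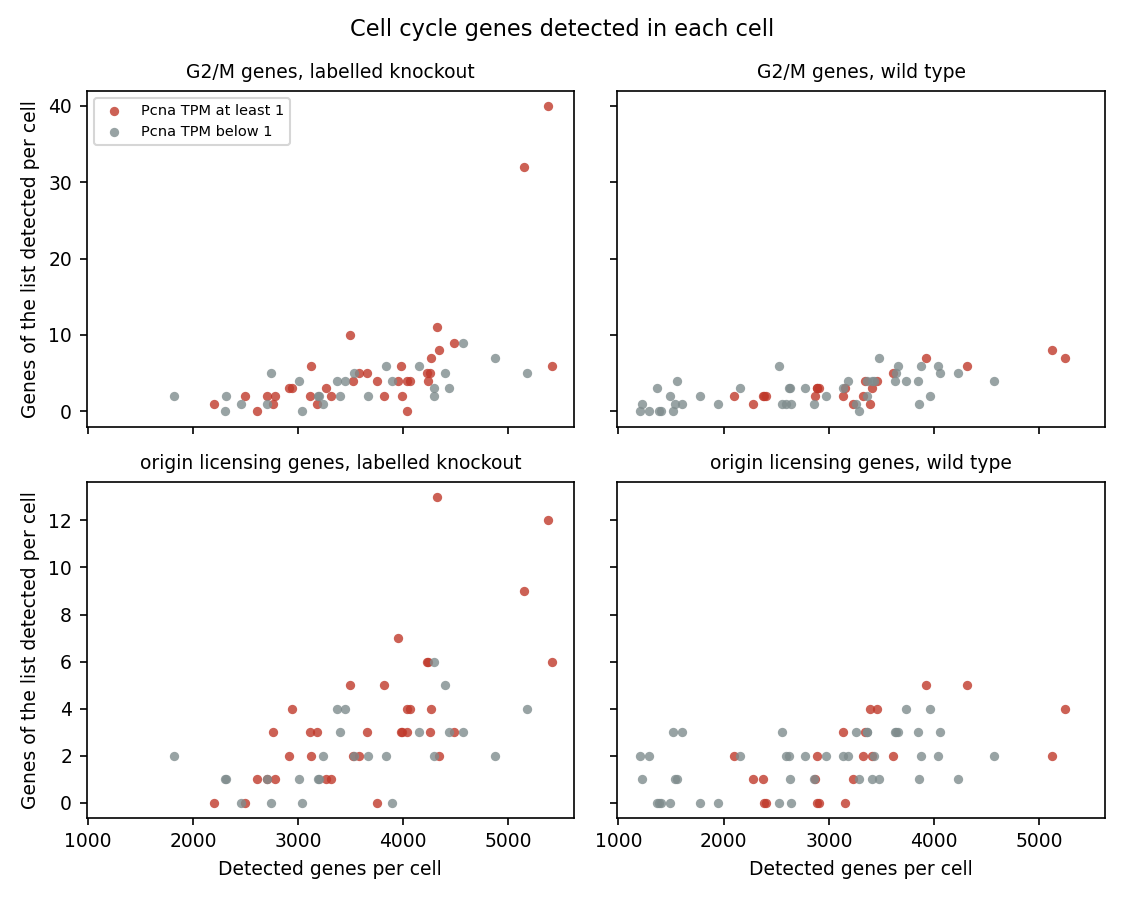
Number of G2/M genes (top, of 42) and origin licensing genes (bottom, of 18) detected in each cell against its number of detected genes, for cells labelled knockout (left) and wild type (right); red is Pcna at 1 TPM or more, grey below. Most Pcna cells lie within the range of cells without Pcna, and the cells with 40 and 32 G2/M genes stand apart.

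No gene of the G1/S, nucleotide synthesis or PCNA-dependent repair lists was past the size on either chip. Of 11 cyclin, E2F and Rb genes tested among cells labelled knockout, 4 were higher in Pcna cells (median -0.16), against 8 of 10 in wild type (median 0.18). Cdk2, the S-phase kinase, was detected in 14 of 35 Pcna cells and 3 of 26 cells without Pcna labelled knockout (0.65) and in 4 of 22 and 3 of 44 in wild type (0.20). Cdk4, the G1 kinase, was at -0.02 among cells labelled knockout and 0.98 in wild type. Nucleotide synthesis genes had medians of 0.42 among cells labelled knockout (9 of 16 above 0) and 0.29 in wild type (10 of 14 above 0). Paics, an enzyme of purine synthesis, differed by 0.44 among cells labelled knockout and by 1.33 in wild type, where it was detected in 20 of 22 Pcna cells and 27 of 44 cells without Pcna. Genes of repair processes that use PCNA had medians of 0.35 and 0.26, with 8 of 12 and 8 of 13 above 0. Ercc5, the nucleotide excision repair nuclease, was detected in 8 of 35 and 0 of 26 cells labelled knockout and in 5 of 22 and 2 of 44 wild-type cells. Among cells labelled knockout it entered the tested members through Pcna cells alone.

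Among the 29 genes of the p53 target list, the largest difference was that of Cdkn1a in wild type. Cdkn1a encodes the cyclin-dependent kinase inhibitor p21, which also binds PCNA. In wild type it was detected in 15 of 22 Pcna cells (lowest 0, median 108, highest 909 TPM) and in 16 of 44 cells without Pcna (lowest 0, median 0, highest 809 TPM), an adjusted difference of 1.92. Among cells labelled knockout it was detected in 12 of 35 Pcna cells and 7 of 26 cells without Pcna, with medians of 0 in both and a difference of 0.68. The wild-type difference did not reach 2 over all cells and was 2.17 without the cell with many ciliated genes, and the difference between chips was not tested. Ccng1, the p53-induced cyclin G1, was detected in 13 of 22 and 13 of 44 wild-type cells (0.99) and in 14 of 35 and 5 of 26 cells labelled knockout (0.64). The antiproliferative gene Btg2 was at 1.04 among cells labelled knockout and 0.98 in wild type, and Perp at -0.41 and -1.10. Over the list, 10 of 17 genes were above 0 among cells labelled knockout (median 0.10) and 12 of 19 in wild type (median 0.28). Of the other CDK inhibitors, Cdkn1b (p27) was at 0.35 and 0.46 and Cdkn1c (p57) at -0.05 and 1.15.

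Growth-related lists stayed near 0. Ribosome biogenesis genes had medians of 0.18 among cells labelled knockout (12 of 15 above 0) and 0.14 in wild type (8 of 14). Nhp2, a component of small nucleolar ribonucleoproteins, was detected in 18 of 35 Pcna cells and 6 of 26 cells without Pcna labelled knockout (1.57), and differed by 0.50 in wild type. Proteasome genes had medians of 0.15 (18 of 31 above 0) and 0.12 (20 of 31). Chromatin and cytoskeletal genes of dividing cells had medians of -0.08 and -0.09, and Stmn1, among cells labelled knockout, was the one member past the size.

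Reg3g, Scgb3a1, Bpifb1 and Bpifa1, secreted products of the airway, ranked 1, 3, 4 and 22 among genes lower on both chips by the smaller of their differences. They form none of the lists and were picked out after their values were seen. Reg3g encodes an antibacterial lectin, Scgb3a1 a secretoglobin, and Bpifa1 and Bpifb1 are antimicrobial and lipid-binding airway proteins. Over all cells Reg3g had the largest difference shared by both chips, -2.08 among cells labelled knockout, past the size, and -1.81 in wild type, short of it. Scgb3a1 was at -1.58 and -1.37, Bpifb1 at -1.34 and -1.77, and Bpifa1 at -0.97 and -1.47, none of them past the size on either chip. Since these are airway genes, the comparison was repeated among cells with Scgb1a1 above Sftpc, a choice made after the values were seen. That left 28 Pcna cells and 18 cells without Pcna labelled knockout, and 17 and 32 in wild type.

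Within these cells the 4 genes were past the size on both chips by the adjusted difference, in wild type at -2.06 to -2.15. Before adjustment, the wild-type means of log2(TPM + 1) with and without Pcna lay less than 2 apart for Reg3g (3.80 and 5.21) and Scgb3a1 (5.80 and 7.56). Among cells labelled knockout they lay more than 2 apart (8.10 and 10.39 for Reg3g, 9.30 and 11.93 for Scgb3a1). There, 21 genes were lower among cells labelled knockout (0.225% of those tested) and 25 in wild type (0.297%). The 4 shared genes were 19.05% of the first list and 16% of the second, and 0.0517% of the 7733 genes tested on both. These cells were chosen after the values of the 4 genes were seen, so the shares are only a description. Among higher genes the lists held 27 (0.29%) and 31 (0.368%), with 1 shared (0.0129%), Pmpcb, a subunit of the mitochondrial processing peptidase, at 2.14 and 2.01. The percentages past the size were larger than those over all cells. Without the 3 of these cells with many ciliated or immune genes, the 4 genes were at -3.42 to -3.85 among cells labelled knockout and -2.51 to -2.66 in wild type.

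Reg3g among these cells labelled knockout had a lowest value of 0, a median of 2876 and a highest of 33250 TPM with Pcna, against 0, 5965 and 38709 TPM without Pcna. It was detected in 18 of 28 and 15 of 18 of them, and the difference was -2.99. In wild type it had a lowest value of 0, a median of 0.20 and a highest of 23482 TPM with Pcna (7 of 17 detected), against 0, 1.56 and 25229 TPM without it (16 of 32), a difference of -2.06. Before adjustment, the mean of log2(TPM + 1) was 8.10 with Pcna and 10.39 without it among cells labelled knockout, and 3.80 and 5.21 in wild type. Many values were near 0 and many were high, some lay between, and the ranges of cells with and without Pcna overlapped. Scgb3a1 labelled knockout had a median of 16353 TPM with Pcna (22 of 28 detected) and 25646 TPM without Pcna (16 of 18), a difference of -3.18. In wild type its medians were 12.4 TPM (10 of 17) and 72.4 TPM (25 of 32), a difference of -2.14.

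Bpifa1 labelled knockout was detected in 19 of 28 Pcna cells and 15 of 18 cells without Pcna (-2.85), and in wild type in 9 of 17 and 18 of 32 (-2.15). Bpifb1 labelled knockout was detected in 18 of 28 and 14 of 18 (-2.95), and in wild type in 7 of 17 and 15 of 32 (-2.06). For these 2 genes the gap in detection was wider among cells labelled knockout than in wild type, where Bpifa1 reached 52.9% and 56.2% of cells with and without Pcna. These 4 transcripts varied together over cells, so they are not 4 separate results: Spearman's rho between pairs was 0.74 to 0.88 over the 46 cells labelled knockout and 0.73 to 0.85 over the 49 wild-type cells, all from 1 chip each. Scgb1a1 itself differed by 0.21 and -0.16 in these cells.

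**Figure D5:**
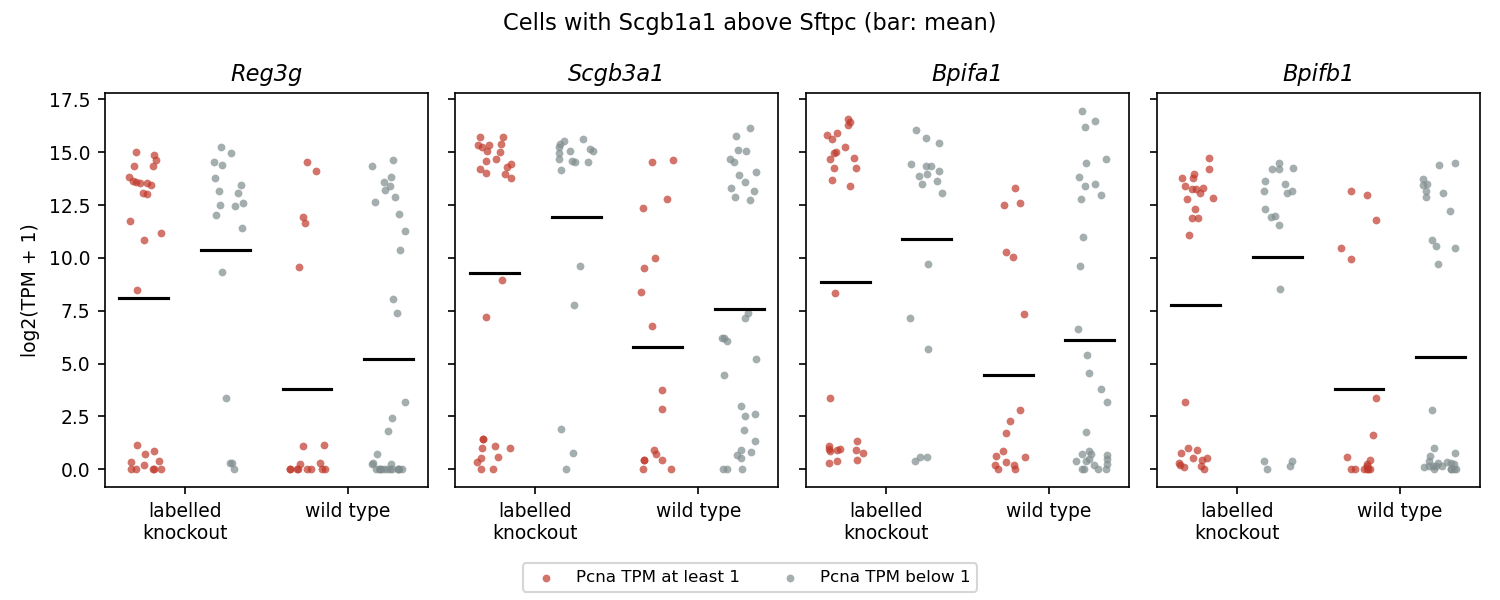
log2(TPM + 1) of 4 secreted airway genes in each cell with Scgb1a1 above Sftpc, Pcna cells (red) left of cells without Pcna (grey) on each chip; horizontal bars are unadjusted means. The mean is lower in Pcna cells for all 4 genes on both chips, for example 8.10 against 10.39 for Reg3g among cells labelled knockout and 3.80 against 5.21 in wild type, and the ranges overlap.

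Viewed from the secreted genes, 18 of 33 such cells labelled knockout with Reg3g held Pcna (54.5%; exact interval 36.4% to 71.9%), against 10 of 13 without Reg3g (76.9%; 46.2% to 94.96%). In wild type it was 7 of 23 with Reg3g (30.4%; 13.2% to 52.9%) and 10 of 26 without Reg3g (38.5%; 20.2% to 59.4%). The intervals overlapped on both chips. The Reg3g difference over all cells labelled knockout moved to -0.84 when Pcna cells were defined at 10 TPM, and to -1.60 without the covariate for detected genes.

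No goblet cell gene, of those that encode mucus proteins and their helpers, was past the size. In wild type 0 of 5 members tested were above 0 (median -0.98), against 47.8% of all wild-type genes, and among cells labelled knockout 3 of 7 were (median -0.13), against 48.7% of all genes. Agr2, a folding enzyme for mucins, was detected in 0 of 22 wild-type Pcna cells and 11 of 44 wild-type cells without Pcna (-2.19, below the detection share required). In wild type it thus entered the tested members through cells without Pcna alone. Among cells labelled knockout it was detected in 14 of 35 and 13 of 26 (-0.63). Muc5b, the main airway mucin, was at -1.05 among cells labelled knockout and -0.98 in wild type, and Tff2, a trefoil peptide, at -1.08 and -1.20. The 24 club cell markers had medians of 0.31 (17 of 22 above 0) and 0.15 (12 of 23), with Cldn10 and Scgb3a2 the members past the size.

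Markers of other cell types did not separate the groups by size. Alveolar type 2 genes had medians of -0.09 among cells labelled knockout (8 of 19 above 0) and -0.32 in wild type (7 of 19), and alveolar type 1 genes 0.39 (8 of 11) and -0.21 (3 of 10). Of 22 ciliated cell genes, 3 were frequent enough to test among cells labelled knockout and 2 in wild type. Foxj1, the ciliated cell regulator, reached 1 TPM in 1 wild-type Pcna cell; the 3 cells with many ciliated genes are given above. Ptprc, which encodes the leukocyte antigen CD45, was at or near 0, reaching 1 TPM in 0 of 127 cells, which allows a share of up to 2.36% by the same limit of 3 cells. Immune cell genes had medians of 0.07 (3 of 4 above 0) and 0.10 (3 of 4), and included Cd74 and Lyz2, which alveolar type 2 cells also express. The cell with 10 immune genes was among the cells without Pcna labelled knockout. Tested members numbered 2 and 3 of 9 basal cell genes, 2 and 1 of 12 endothelial genes, and 1 and 1 of 14 fibroblast and smooth muscle genes, none past the size. No neuroendocrine or red blood cell gene was frequent enough to test. Immediate early and stress genes had medians of 0.04 (7 of 14 above 0) and -0.23 (4 of 16).

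In bulk, Pcna was measured over the whole sorted population. Trp53, the targeted gene, was at 8.63, 9.98 and 7.56 FPKM in the p53 knockout libraries and at 16.6, 22.2 and 21.7 FPKM in the wild-type libraries, with no overlap (log2 difference -1.12, SE 0.149; limma adjusted p = 0.144). Pcna was at 42.9, 46.8 and 46.2 FPKM in the p53 knockout libraries and at 32.7, 42.9 and 45.8 FPKM in the wild-type libraries. The means were 45.3 ± 2.12 in knockout and 40.5 ± 6.85 in wild type (SD, n = 3 each), and the groups overlapped. The log2 difference was 0.17 (SE 0.138; limma adjusted p = 0.641; exact two-sided permutation p = 0.3, where 0.1 is the smallest p that 3 against 3 allows). Without wild-type replicate 1, which had the lowest Pcna, the difference was 0.03. That library also stood apart in Reg3g, with 215 FPKM, against 3958 and 4140 FPKM in the other wild-type libraries. Of 11957 genes, 1 passed limma's adjusted threshold of 0.05 (0.00836%), and 1566 had an unadjusted p below 0.05 (13.1%). None of 32 fork partners and 14 licensing genes passed it, with median log2 differences of -0.04 and -0.01. Cell type markers moved between the same libraries: 22 of 22 ciliated genes were above 0 (median 1.37), as were 0 of 16 alveolar type 2 genes (median -0.99) and 0 of 14 immune genes (median -0.91). Their part in the Pcna values was not tested. Mcm5 was at 3.25 ± 0.135 FPKM in knockout and 3.23 ± 0.719 FPKM in wild type (SD, n = 3 each). In bulk, fewer cells of a type and less RNA per cell cannot be told apart. Separate animals are not named for the libraries, so the p-values cover the spread among these libraries, which may be technical.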

How the data were processed

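Single-cell expression was deposited as TPM in 1 table per genotype, with 92 ERCC spike-ins. The submitters' processing notes name RSEM 1.2.20, Bowtie 1.1.1 and the build GRCm38 for the authors' TPM values. Bulk expression was deposited as FPKM, for which those notes name Cufflinks, TopHat and Bowtie2 and the build mm10. Neither unit keeps read counts, so read depth is unknown and no count test was used; precision is limited by the number of detected genes and cells.

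Wells with a debris or valve remark (3 labelled knockout, 1 wild type) and cells under 1000 detected genes (3 and 6) were left out; 2 samples labelled knockout were matched to no column and not used here. The labels' protocol describes inspection of wells for doublets, and no doublet caller was run. Each chip is 1 sample, so cells gave no p-value. Per gene, log2(TPM + 1) was fitted on the Pcna group and the log2 number of detected genes other than Pcna, within each table, where at least 10% of cells had 1 TPM. Shares have exact (Clopper-Pearson) intervals and the difference of shares a Newcombe interval, at 95%, and a share of 0 is given with the limit of 3 cells; all cover counting error only. Analyses used Python 3.11.15, pandas 2.3.3, scipy 1.17.1 and statsmodels 0.14.6; the fits were tested on simulated data.

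Bulk log2(FPKM + 1) was tested with limma 3.58.1 in R 4.3.3 (trend, robust, Benjamini-Hochberg), for genes reaching 1 FPKM in 3 or more libraries; 12 genes with entries marked in place of a value were left out.

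Promoters came from RefSeq (GRCm38.p6). The members and the 23 gene lists were chosen with earlier results of these data known. Named genes were Pcna, the genes past the size with the largest difference of the same sign in both tables, the largest of each table, up to 4 members of each list and a fixed set of cell cycle and cell type genes; others, such as Bpifa1, Bpifb1, Tipin, Lig1, Fen1, Uba2 and Pmpcb, were chosen after their values were seen. Alternatives were other Pcna thresholds, covariates, a pseudocount of 10, no filter on low genes, rescaling without spike-ins, a minimum of 2000 detected genes and, added after seeing the data, only cells with Scgb1a1 above Sftpc and leaving out the 2 cells with most G2/M genes or the 4 cells with at least 10 ciliated or immune genes.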

Additional observations from a re-analysis of the deposited data

Results flagged for a closer look

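Pcna signal also appeared in wells outside the comparisons. One of the 3 wells labelled knockout with a debris or valve remark had 207 TPM of Pcna, with 3486 detected genes and Mki67 and Top2a at 0, while the other such wells, including the 1 of wild type, were at 0. The off-chip positive control run with the knockout cells had 11.7 TPM of Pcna with 7953 detected genes. Its negative counterpart had Pcna at 0, and spike-ins took nearly all of its TPM.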

How the results depend on the processing

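The counts of genes past the size depended on how groups and depth were treated. Higher genes among cells labelled knockout, 10 in the report, numbered 16 without the covariate for detected genes, 0 with a pseudocount of 10 and 27 among cells with Scgb1a1 above Sftpc. Lower genes there, 6 in the report, numbered 3 with Pcna defined at 10 TPM, 0 with a pseudocount of 10 and 21 among cells with Scgb1a1 above Sftpc. Wild-type higher genes, 11 in the report, numbered 6 with any Pcna above 0, 39 with Pcna at 10 TPM, 49 without the covariate, 29 with detected genes as 2 strata, 0 with a pseudocount of 10 and 31 among cells with Scgb1a1 above Sftpc. Wild-type lower genes, 8 in the report, numbered 1 without the covariate, 2 with strata, 1 with a pseudocount of 10 and 25 among cells with Scgb1a1 above Sftpc. The counts shared by both tables were 0 in each direction under the other 9 settings tried over all cells and without the 2 cells with most G2/M genes, and 1 higher and 4 lower among cells with Scgb1a1 above Sftpc. Without the 4 cells with at least 10 ciliated or immune genes they were 0 higher and 1 lower (Reg3g). With both restrictions, 32 genes were higher and 37 lower among cells labelled knockout, 37 higher and 23 lower in wild type, and 1 higher and 6 lower in both. The share of wild-type Pcna cells was 19.7% at a threshold of 10 TPM, below its interval at 1 TPM. The cause of these changes was not tested. For bulk Pcna, leaving out each library in turn gave log2 differences of 0.03 to 0.27. No paired analysis was possible because the bulk groups share no replicate number and cells carry none. With 1 chip per genotype, 22 to 44 cells per group and transcripts near 1 TPM in single cells, a missing transcript cannot be told apart from one lost in capture.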
